A study of Mus musculus with 3 samples.

Results

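The 53 genes described here encode proteins of the mitotic spindle, the kinetochore, the spindle checkpoint, condensin and cytokinesis, with the proliferation markers Mki67 and Top2a. They were chosen by symbol from the 24421 symbols in each deposited table, and all 53 were found. RNA was measured in granulocyte progenitors, bone marrow cells committed to the neutrophil lineage, taken from female mice and purified with a cell sorter. The NTB library came from F1 semi-syngeneic (H-2b/d) mice without a tumor, and the 4T1-TB library from mice of that same F1 background bearing 4T1, a transplantable mouse mammary carcinoma. The IRF8-deficient library came from C57BL/6 (H-2b) mice lacking IRF8, a transcription factor that favours monocytes and dendritic cells over granulocytes. The IRF8-deficient library thus differed from the other libraries in strain as well as genotype, and the effects of these cannot be told apart. The sources used here give neither the age of the mice, nor how many were pooled for a library, nor the allele.

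Each group had 1 library, so no value has an error between animals, no difference was tested and no p-value is given. Levels are RPKM, reads per kilobase of gene scaled to a library size. Intervals are exact, at 95%, and cover counting error only. Recovered whole reads summed to between 22766101 and 41165745 per library. Relative to the summed reads, the library size that the deposited RPKM imply was 1.09 (NTB), 0.975 (4T1-TB) and 0.742 (IRF8-deficient). Scaling by summed reads in place of the deposited scaling therefore moved the log2 ratio of RPKM by -0.16 for 4T1-TB over NTB, by -0.55 for IRF8-deficient over NTB and by -0.40 for IRF8-deficient over 4T1-TB. Differences on log2(RPKM + 1), used below, moved by less in low genes. The ribosomal precursor Rn45s took 1.84% of the reads of NTB, 6.50% of those of 4T1-TB and 14.1% of those of IRF8-deficient. Scaled by summed reads without Rn45s, the median difference of the 53 genes between IRF8-deficient and NTB was 0.26, against 0.07 with it. Irf8 itself stood at 43.8 (NTB), 8.60 (4T1-TB) and 13.7 (IRF8-deficient), so the library labelled IRF8-deficient still held Irf8 reads, and more than 4T1-TB per unit of library size. A value for the whole gene cannot show which exons those reads came from.

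A dividing cell copies its chromosomes in S phase, compacts them with condensin, attaches them through kinetochores to spindle microtubules and separates them when the anaphase-promoting complex releases separase from its inhibitor securin. In the neutrophil lineage, division takes place in the progenitor stages and ends as the cells mature. The genes of mitosis are switched on together late in the cell cycle, and many of their promoters carry a CHR (cell cycle genes homology region), the element read by the DREAM and MuvB complexes, near CCAAT boxes, which bind NF-Y.

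A RefSeq promoter window, 250 bases before to 50 after the start of transcription on GRCm38.p6 (the mm10 assembly), was given for 46 of the 53 members. Searched on both strands, the CHR letters (TTTGAA or its complement TTCAAA) stood in the windows of 32 of 46 members, or 69.6%. The same letters stood in 20.2% of all 27025 genes with a window, in 14.3% of the 8170 genes with a window that were compared below, and in 5 of 44 DNA replication genes. Within 50 bases of the start they were found in 29 of 46 members and in 3.84% of the genes compared. The CCAAT box (CCAAT or ATTGG) stood in 32 of 46 members against 43.4% of the genes compared. It also stood in 26 of 44 DNA replication genes and in 17 of 20 regulators of mitosis, a list described below. It was thus not particular to the members. CHR letters stood in 7 of those 20 regulators. Both kinds of letters shared a window in 27 of 46 members against 6.03% of the genes compared. A match describes letters in a window and is not evidence of a bound site, and the members are a chosen list. The windows of Pttg1, Cenph and Cenpk held no CHR letters, and neither did those of Bub1, Mad2l1, Plk4, Fzr1, Birc5, Nuf2, Nusap1, Tacc3, Cenpe, Knstrn and Ncaph.

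The promoters of 5 members are shown, all picked from members with CHR letters. Among those, Spc25 and Cenpf had the largest difference between IRF8-deficient and NTB, and Espl1 and Ttk the smallest. Mki67 is the usual marker of cycling cells. Each is 180 bases from RefSeq (GRCm38.p6), read 5′ to 3′ on the gene's strand from 150 bases before the start to 30 after it. Capitals mark CHR letters and CCAAT boxes on either strand.

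Spc25 chr2:69206184-69206363 strand -: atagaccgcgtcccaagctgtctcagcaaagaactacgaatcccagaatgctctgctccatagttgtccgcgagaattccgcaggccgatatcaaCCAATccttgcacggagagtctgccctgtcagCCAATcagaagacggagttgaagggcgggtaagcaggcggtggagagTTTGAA
Cenpf chr1:189688057-189688236 strand -: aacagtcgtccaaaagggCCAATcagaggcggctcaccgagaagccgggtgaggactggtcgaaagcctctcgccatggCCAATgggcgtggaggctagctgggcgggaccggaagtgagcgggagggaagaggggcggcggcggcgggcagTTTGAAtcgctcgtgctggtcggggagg
Espl1 chr15:102296143-102296322 strand +: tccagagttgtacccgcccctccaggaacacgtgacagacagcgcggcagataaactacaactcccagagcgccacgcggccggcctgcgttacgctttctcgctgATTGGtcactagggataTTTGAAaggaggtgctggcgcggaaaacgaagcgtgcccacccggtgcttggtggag
Ttk chr9:83834539-83834718 strand +: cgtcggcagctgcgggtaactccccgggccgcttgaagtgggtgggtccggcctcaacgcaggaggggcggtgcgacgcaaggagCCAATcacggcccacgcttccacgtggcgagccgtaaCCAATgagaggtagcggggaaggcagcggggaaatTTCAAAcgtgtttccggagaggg
Mki67 chr7:135716350-135716529 strand -: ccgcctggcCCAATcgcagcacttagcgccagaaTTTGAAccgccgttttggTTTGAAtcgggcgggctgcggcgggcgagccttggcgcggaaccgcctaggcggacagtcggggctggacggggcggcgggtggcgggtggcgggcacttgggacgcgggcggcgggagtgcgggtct

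The CHR letters began 25 bases into the transcript in Spc25, 3 bases into it in Cenpf and 8 bases into it in Ttk, where they lie on the opposite strand. In Espl1 they began at -27, and in Mki67 at -116 and -98. The letters thus lay closer to the start in Spc25, Cenpf, Espl1 and Ttk than in Mki67. All the promoters shown were picked from members with CHR letters, and members without them, such as Nusap1 and Pttg1, were left out. They therefore cannot show whether CHR letters go with the size of the difference.

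**Figure D1:**
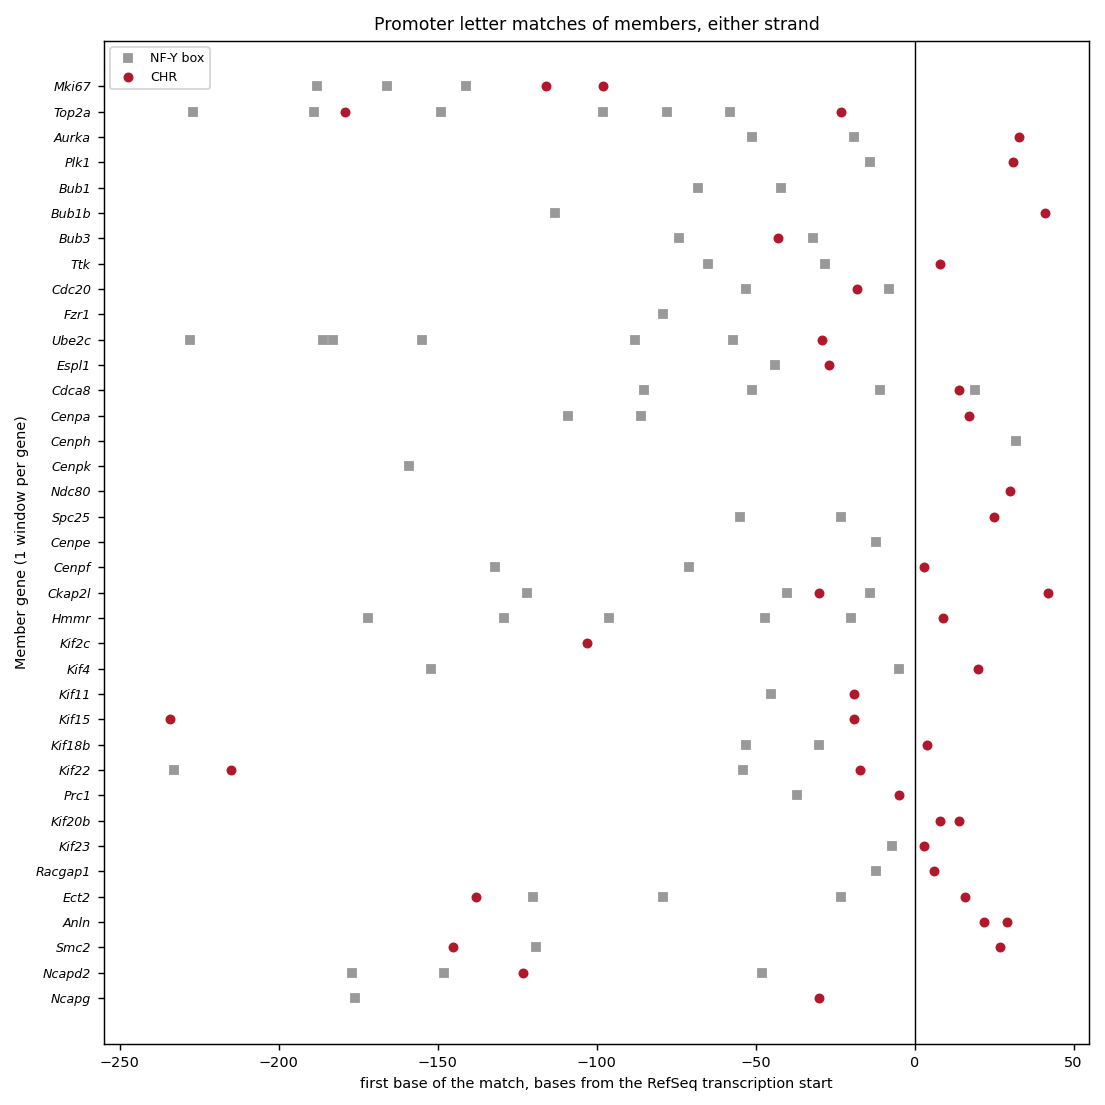
Positions of CHR letters (circles) and of CCAAT boxes, the NF-Y box (squares), in the RefSeq promoter windows of the 37 members with either, 1 window per gene, in bases from the start of transcription. Most circles lie within 50 bases of the start, as in 29 of the 46 members with a window, and most squares lie before it.

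All 53 members were expressed in every library, with an RPKM of at least 5 and at least 238 reads. The members had a median RPKM of 34.7 (NTB), 34.2 (4T1-TB) and 57.9 (IRF8-deficient). Stmn1, Mki67, Top2a, Smc4 and Ube2c were the 5 highest members in NTB and in IRF8-deficient. Cenpk and Pttg1 were the lowest in both. On the deposited scaling 51 of 53 members were highest in IRF8-deficient, and the exceptions were Pttg1 and Cenph. Of those 51, 28 were lowest in 4T1-TB and 23 were lowest in NTB. As a share of all recovered reads, the members took 1.07% (NTB), 0.921% (4T1-TB) and 1.20% (IRF8-deficient).

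**Figure D2:**
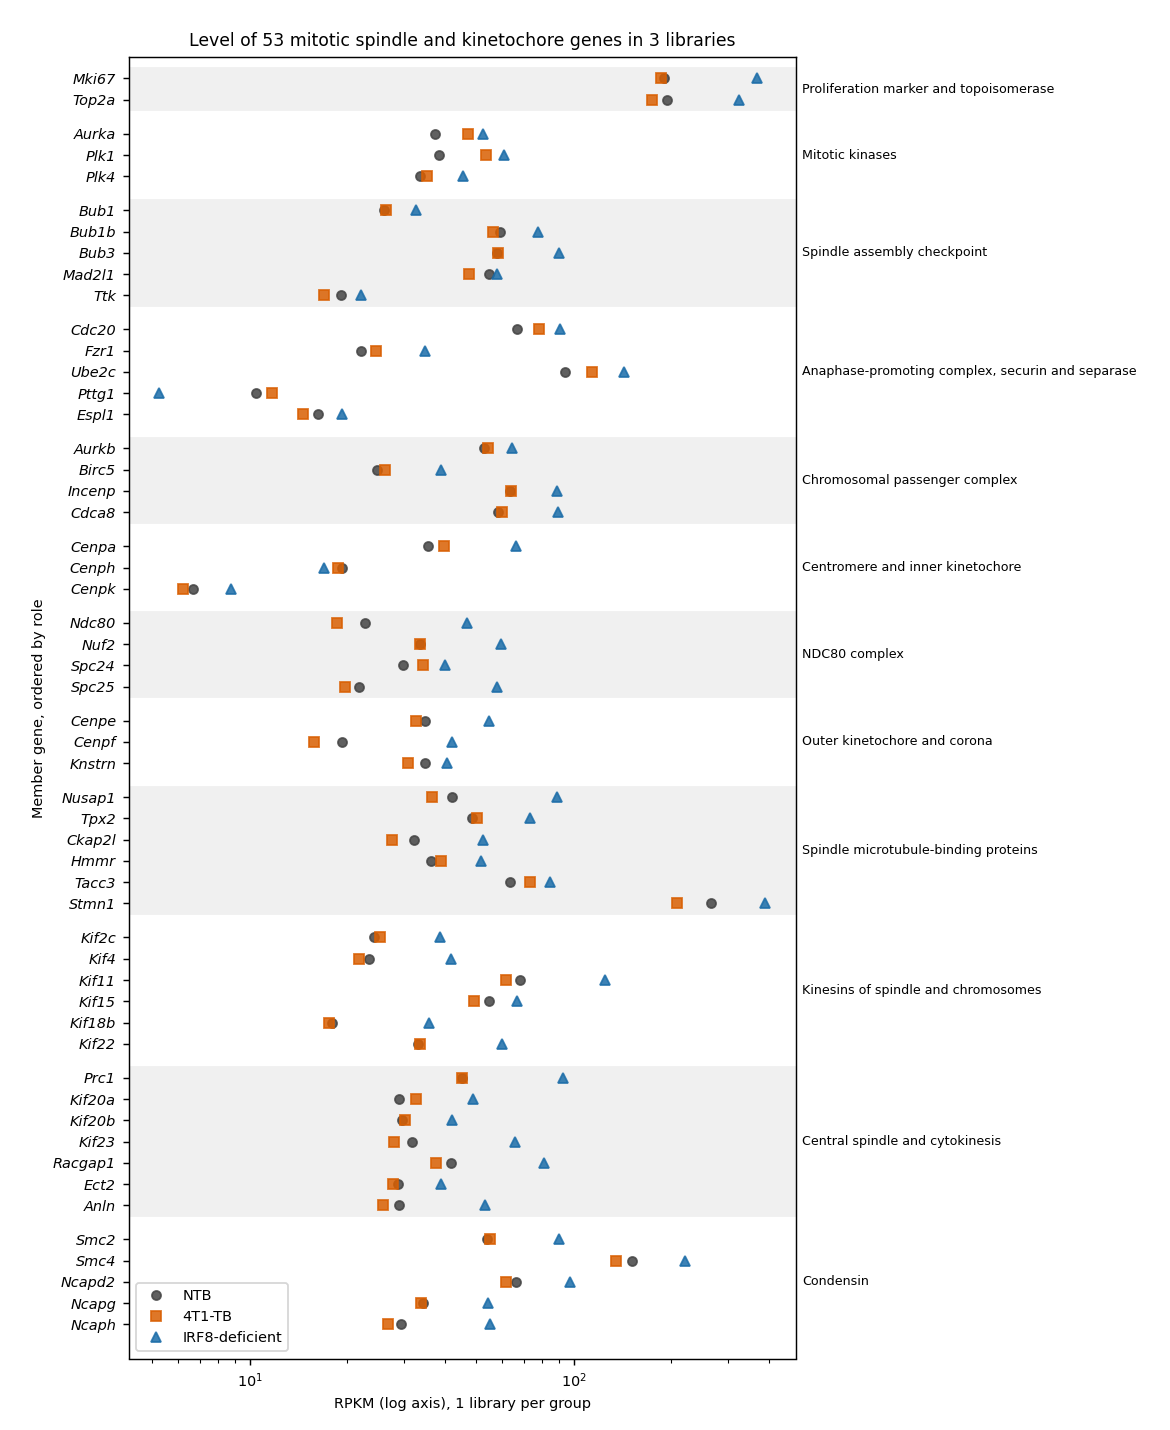
RPKM (log axis) of each of the 53 members in NTB (circles), 4T1-TB (squares) and IRF8-deficient (triangles), 1 library per group, in order of role. The triangle is rightmost for all members but Pttg1 and Cenph on the deposited scaling, and by summed reads 21 members lie lower in IRF8-deficient than in NTB.

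Both comparisons with NTB share that library, so each is described by its own values. Differences were taken on log2(RPKM + 1), and differences of at least 1 in size, close to 2-fold for well expressed genes, count as called. Over all 10658 genes that reached an RPKM of 1 in some library, 1.67% were called higher and 1.35% lower in 4T1-TB than in NTB. No member was called either way, and none passed 1.5-fold, which 4.37% of all genes passed upward and 4.97% downward. The median difference of the members was -0.03, against 0.01 over all genes compared, and their range was -0.35 to 0.47. By summed reads the median was -0.18 against -0.13 over all genes. The median of the mitotic genes thus lay within 0.05 of that of all genes in the tumor-bearing library, under both scalings.

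In IRF8-deficient against NTB 6 members were called higher and none lower, where 8.78% of all genes were called higher and 5.73% lower. At 1.5-fold 30 of 53 members were higher and 1 was lower, against 17.4% and 16.7% of all genes. The median difference of the members was 0.62 and that of all genes -0.02, so the members stood 0.64 above it. By summed reads the median was 0.07 against -0.51 over all genes, still 0.58 above, while only 32 of 53 members were higher in IRF8-deficient and 21 were lower, where 79.1% of all genes were lower. On that scaling no member was called higher and 1, Pttg1, was called lower, against 4.18% and 18.3% of all genes. Under both scalings 51 of 53 members lay above the median of all genes, where 50% of genes lie by construction. Whether the level of these genes per unit of RNA was higher thus depends on the scaling. A scaling multiplies all genes of a library alike, so the place of the members relative to other genes could move only through the pseudocount. In these bulk libraries a larger share of dividing cells and more mitotic RNA per dividing cell cannot be told apart. All 14 markers of maturing neutrophils were detected in every library. They summed to an RPKM of 39252 in IRF8-deficient, against 1446 in NTB, and their part in these differences was not tested.

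In IRF8-deficient against 4T1-TB 10 members were called higher and 1 lower, where 8.83% of all genes were called higher and 7.07% lower. The median difference was 0.57 against 0.00 over all genes, and by summed reads 0.19 against -0.34. The members called higher were Spc25, Cenpf, Ndc80, Nusap1, Kif23, Racgap1, Kif11, Anln, Ncaph and Prc1, and the member called lower was Pttg1. At 1.5-fold 26 members were higher and 1 lower, against 18.6% and 18.1% of all genes. By summed reads 1 member, Spc25, was called higher and 1, Pttg1, lower, where 4.54% and 14.5% of all genes were.

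**Figure D3:**
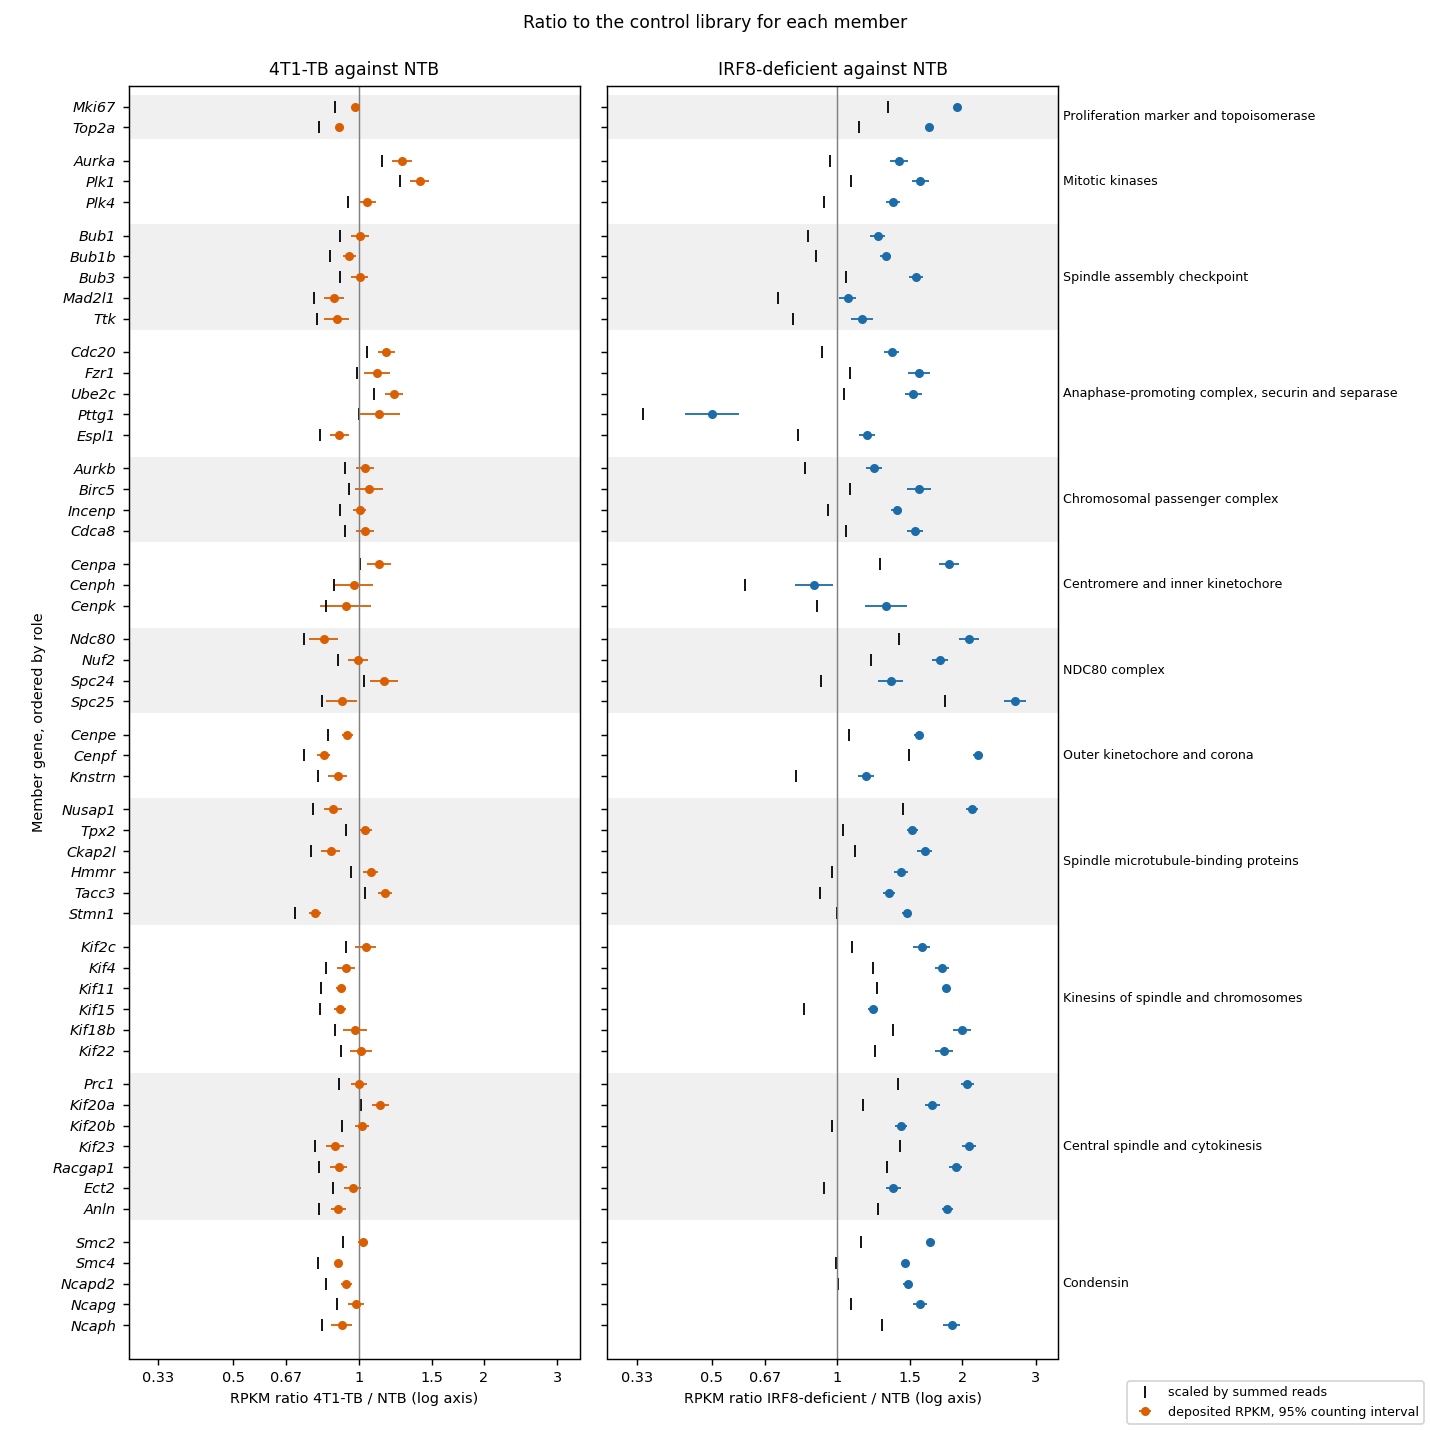
Ratio of RPKM to NTB (log axis) for each member in 4T1-TB (left) and IRF8-deficient (right), with 95% counting intervals as bars, and the ratio scaled by summed reads as black ticks. On the left the points lie near 1, from Stmn1 at 0.79 to Plk1 at 1.40. On the right they lie above 1 for all members but Pttg1 and Cenph, and the ticks lie below 1 for 21 of 53.

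Mki67, a protein that coats mitotic chromosomes, had RPKM values of 189.8 (NTB), 186 (4T1-TB) and 368 (IRF8-deficient). Top2a, the topoisomerase that untangles sister chromatids, had 194, 174 and 323. Both were highest in IRF8-deficient under both scalings. The IRF8-deficient to NTB ratio was 1.94 (1.92 to 1.96) for Mki67 and 1.66 (1.64 to 1.68) for Top2a, and by summed reads 1.32 and 1.13. Neither passed the 2-fold call on these scalings, and with median ratio scaling Mki67 did, at a difference of 1.00.

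The mitotic kinases had the highest median difference of any role between 4T1-TB and NTB, at 0.33 (0.18 by summed reads). Plk1 (chromosome 7, 122159439 to 122169873, mm10), which drives centrosome maturation and mitotic entry, had RPKM values of 38.3 (NTB), 53.6 (4T1-TB) and 60.7 (IRF8-deficient). Its 4T1-TB to NTB ratio of 1.40 (1.33 to 1.47) was the largest of any member and remained above 1 by summed reads, at 1.25. Aurka, the kinase of spindle poles, had 37.2, 47.1 and 52.4, a 4T1-TB to NTB ratio of 1.27 (1.20 to 1.34). Plk4, which starts centriole duplication, had 33.5, 35.1 and 45.6. The kinases were thus ordered NTB, 4T1-TB, IRF8-deficient on the deposited scaling. By summed reads Aurka and Plk4 turned to 0.96 and 0.93 in IRF8-deficient against NTB, and Plk1 stood at 1.08.

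The spindle assembly checkpoint, which holds back anaphase until every kinetochore is attached, had the smallest median difference of any role between IRF8-deficient and NTB, at 0.31. That median was -0.22 by summed reads. Mad2l1, whose protein forms the inhibitory complex with Cdc20, had RPKM values of 54.6 (NTB), 47.6 (4T1-TB) and 57.9 (IRF8-deficient). Ttk, the kinase that starts checkpoint signalling, had 19.1, 16.9 and 22.0. Both were lower in 4T1-TB than NTB, with ratios of 0.87 (0.82 to 0.92) and 0.89 (0.83 to 0.95). Bub3, the scaffold of the BUB proteins, had 58.1, 58.4 and 89.7, an IRF8-deficient to NTB ratio of 1.54 (1.49 to 1.61). The kinase Bub1 and its relative Bub1b lay between, at 1.25 and 1.31, and both turned below 1 by summed reads, at 0.85 and 0.89.

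The anaphase genes did not share 1 direction. Pttg1 (chromosome 11, 43420250 to 43426251, minus strand), which encodes securin, had RPKM values of 10.5 (NTB), 11.7 (4T1-TB) and 5.24 (IRF8-deficient). Its ratio was 0.50 (0.43 to 0.58) in IRF8-deficient against NTB, where the difference of -0.88 missed the call, and 0.45 (0.38 to 0.53) against 4T1-TB, where the difference of -1.02 passed it. Espl1, the separase that securin inhibits, had 16.3, 14.6 and 19.2. The ratio of Pttg1 to Espl1 RPKM was thus 0.64 (NTB), 0.80 (4T1-TB) and 0.27 (IRF8-deficient), ratios that no scaling of the libraries alters. Cdc20, the activator of the anaphase-promoting complex in early mitosis, had 66.8, 77.8 and 90.4. Ube2c, the ubiquitin-conjugating enzyme of that complex, had 93.6, 114 and 143. Both were ordered as the kinases were, with 4T1-TB to NTB ratios of 1.17 (1.11 to 1.22) and 1.22 (1.16 to 1.28). By summed reads these were 1.05 (0.999 to 1.09) and 1.09 (1.04 to 1.15). Fzr1, the activator that takes over at mitotic exit, had 22.1, 24.4 and 34.7, the largest IRF8-deficient to NTB ratio of the role at 1.57 (1.48 to 1.67). By summed reads that of Cdc20 turned to 0.92, while Ube2c and Fzr1 stood at 1.04 and 1.07.

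The chromosomal passenger complex, which corrects wrong attachments and later moves to the midzone, differed little between NTB and 4T1-TB, with ratios from 1.01 for its scaffold Incenp to 1.06 for Birc5 (survivin), and from 0.90 to 0.95 by summed reads. Incenp had RPKM values of 63.8 (NTB), 64.1 (4T1-TB) and 88.8 (IRF8-deficient). Birc5 had 24.7, 26.2 and 38.9, and the borealin gene Cdca8 had 58.1, 60.2 and 89.5. The catalytic subunit Aurkb had 52.6, 54.4 and 64.7, the smallest IRF8-deficient to NTB ratio of the complex at 1.23 (1.17 to 1.28), against 1.58 (1.48 to 1.68) for Birc5. By summed reads Aurkb and Incenp turned below 1, at 0.84 and 0.95, and Birc5 and Cdca8 stood at 1.07 and 1.05.

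Among the inner kinetochore genes, Cenpa, the histone H3 variant that marks centromeres, had RPKM values of 35.6 (NTB), 39.8 (4T1-TB) and 66.1 (IRF8-deficient), a ratio to NTB of 1.86 (1.76 to 1.96) in the last. Cenph, a subunit of the centromere-associated network, had 19.2, 18.7 and 16.9. Its partner Cenpk, the lowest member in NTB, had 6.69, 6.22 and 8.77. Cenph was the only member besides Pttg1 that was lower in IRF8-deficient than in NTB on the deposited scaling, with a ratio of 0.88 (0.79 to 0.98), and it was 0.60 by summed reads. Cenpa was higher under both scalings, while Cenpk turned from 1.31 to 0.89.

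The NDC80 complex, the rod that grips microtubules, held the largest difference of any member. Spc25 (chromosome 2, 69193895 to 69206194, minus strand) had RPKM values of 21.7 (NTB), 19.7 (4T1-TB) and 58.0 (IRF8-deficient). Its partner Spc24, with which it anchors the rod to the kinetochore, had 29.7, 34.2 and 40.0. Ndc80, the microtubule-binding subunit, had 22.6, 18.6 and 46.9, and Nuf2, its partner at that end, had 33.6, 33.5 and 59.4. Spc25 and Ndc80 were called higher in IRF8-deficient than in NTB, with ratios of 2.67 (2.52 to 2.84) and 2.07 (1.96 to 2.19), and by summed reads the ratios were 1.82 and 1.41. Nuf2 stood at 1.77 and 1.21, and Spc24 at 1.34 and 0.92. The proteins of this complex assemble in equal numbers, but the ratio of Spc25 to Spc24 RPKM was 0.73 (NTB), 0.58 (4T1-TB) and 1.45 (IRF8-deficient), whatever the scaling. In 4T1-TB against NTB the pair also parted, with ratios of 0.91 (0.84 to 0.99) for Spc25 and 1.15 (1.06 to 1.24) for Spc24. By summed reads these were 0.81 and 1.03 (0.95 to 1.11).

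At the outer kinetochore, Cenpf (chromosome 1, 189640606 to 189688086, minus strand), a large coiled-coil protein of the corona, had RPKM values of 19.2 (NTB), 15.8 (4T1-TB) and 41.9 (IRF8-deficient). It was called higher in IRF8-deficient, with a ratio of 2.18 (2.13 to 2.24) to NTB. The kinetochore motor Cenpe had 34.7, 32.6 and 54.6, and Knstrn, an adaptor at kinetochores and spindle poles, had 34.7, 30.8 and 40.6. All 3 were lower in 4T1-TB than in NTB under both scalings, Cenpf most, at 0.82 (0.79 to 0.85). By summed reads the IRF8-deficient to NTB ratio of Cenpf was 1.49, that of Cenpe was 1.07 and that of Knstrn turned from 1.17 to 0.80.

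**Figure D4:**
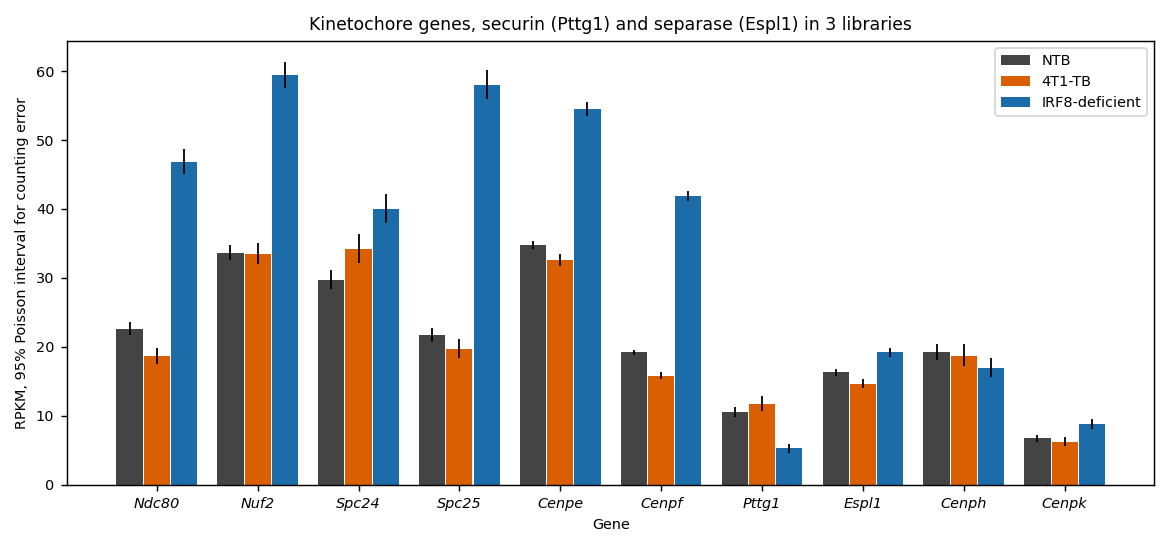
RPKM of 8 kinetochore genes and of the securin gene Pttg1 and the separase gene Espl1, with bars for the 3 libraries (NTB gray, 4T1-TB orange, IRF8-deficient blue) and 95% Poisson intervals for counting error. Spc25 lies below Spc24 in NTB and 4T1-TB and above it in IRF8-deficient, and Pttg1 lies further below Espl1 in IRF8-deficient than in the other libraries.

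Of 6 spindle microtubule-binding proteins 1 was called higher in IRF8-deficient than in NTB. Nusap1, which bundles spindle microtubules, had RPKM values of 42.1 (NTB), 36.5 (4T1-TB) and 88.9 (IRF8-deficient), a ratio of 2.11 (2.04 to 2.19) to NTB and 1.44 by summed reads. Stmn1, which destabilises microtubules and was the highest member in each library, had 265, 208 and 390. Its 4T1-TB to NTB ratio of 0.79 (0.76 to 0.81) was the lowest of any member, and 0.70 by summed reads. Tacc3, which links clathrin and microtubules in spindle fibres, had 63.5, 73.5 and 84.6, the smallest ratio of the role in IRF8-deficient at 1.33 (1.29 to 1.38), and it turned to 0.91 by summed reads. Tpx2, Hmmr and Ckap2l had ratios of 1.52, 1.42 and 1.62.

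The 6 kinesins of the spindle and chromosomes were all higher in IRF8-deficient than in NTB on the deposited scaling, and Kif15 turned lower by summed reads. Kif18b, which shortens astral microtubules, had RPKM values of 17.9 (NTB), 17.5 (4T1-TB) and 35.8 (IRF8-deficient), a ratio of 2.00 (1.90 to 2.10) to NTB whose difference of 0.96 missed the call. Kif11, the motor that pushes spindle poles apart, had 68.1, 61.7 and 125, and was called higher in IRF8-deficient than in 4T1-TB at 2.02 (1.96 to 2.08). Kif15, which can keep spindles bipolar in place of Kif11, had 54.7, 49.3 and 66.7, only 1.22 (1.19 to 1.25) times NTB in IRF8-deficient. In 4T1-TB Kif15 and Kif11 had the lowest ratios of the role, at 0.90 and 0.91, and Kif2c, the kinesin that depolymerises microtubules at centromeres, the highest at 1.04 (0.93 by summed reads).

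The central spindle and cytokinesis genes had a median difference of 0.86 between IRF8-deficient and NTB, and 0.32 by summed reads. Kif23, the motor of centralspindlin, had RPKM values of 31.8 (NTB), 27.9 (4T1-TB) and 65.9 (IRF8-deficient). Prc1, which crosslinks midzone microtubules, had 45.1, 45.2 and 92.8. Both were called higher in IRF8-deficient than in NTB, with ratios of 2.08 (2.00 to 2.16) and 2.06 (1.99 to 2.13). Racgap1, the partner of Kif23, had 41.9, 37.4 and 80.8, and the ring scaffold Anln had 28.9, 25.8 and 53.2. These were called only against 4T1-TB, at 2.16 (2.06 to 2.26) and 2.06 (1.98 to 2.15). Ect2, the RhoA activator that centralspindlin recruits, had 28.6, 27.6 and 39.0, the smallest IRF8-deficient to NTB ratio of the role at 1.36 (1.31 to 1.42), and 0.93 by summed reads. The midzone motor Kif20a had the largest 4T1-TB to NTB ratio of the role, at 1.13 (1.08 to 1.18), and Kif23 the smallest, at 0.88 (0.83 to 0.92). By summed reads these were 1.01 (0.96 to 1.06) and 0.79.

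The 5 condensin subunits, which compact mitotic chromosomes, had IRF8-deficient to NTB differences from 0.54 to 0.89, where those of the NDC80 complex ran from 0.42 to 1.38. Smc4, a core ATPase, had RPKM values of 151 (NTB), 135 (4T1-TB) and 220 (IRF8-deficient), and its partner Smc2 had 53.8, 55.1 and 90.1. Ncaph, the subunit that closes the condensin I ring, had 29.3, 26.6 and 55.2, the largest ratio of the 5 at 1.88 (1.80 to 1.97), and was called higher against 4T1-TB at 2.07 (1.95 to 2.20). Ncapd2 and Ncapg, the subunits with HEAT repeats, had ratios of 1.48 and 1.58. By summed reads the condensin ratios ran from 0.99 for Smc4 to 1.28 for Ncaph.

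DNA replication genes, a list of 54 that also serve dividing cells, lay below NTB in IRF8-deficient more often than above it. Their median RPKM was 37.4 (NTB), 33.2 (4T1-TB) and 28.0 (IRF8-deficient). Of the 54, 42 were lower and 12 higher in IRF8-deficient than in NTB, where 51.5% of all genes were lower, and the median difference was -0.22. None was called either way, where 8.78% of all genes were called higher and 5.73% lower. By summed reads the median was -0.77 and 53 of 54 were lower, where 79.1% of all genes were lower. On that scaling 11 were called lower, a share near the 18.3% of all genes called lower. Without Rn45s 3 were called lower, and the share of all genes on that scaling is not given here. Rrm2, a subunit of ribonucleotide reductase, had the highest difference (0.58) and Rpa2, of the single-strand binding protein, the lowest (-0.81). The median of the mitotic members exceeded that of the replication genes by 0.84 in IRF8-deficient against NTB, by 0.83 in IRF8-deficient against 4T1-TB, and by -0.08 in 4T1-TB against NTB. These gaps stayed between 0.79 and 0.86, between 0.77 and 0.85, and between -0.08 and -0.06 under every scaling, pseudocount and filter tried. A common scaling factor can move such a gap only through the pseudocount, so the scalings could hardly have altered it. As an example free of scaling, the ratio of Mki67 to the replicative helicase gene Mcm5 was 1.70 (NTB), 1.62 (4T1-TB) and 3.98 (IRF8-deficient).

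**Figure D5:**
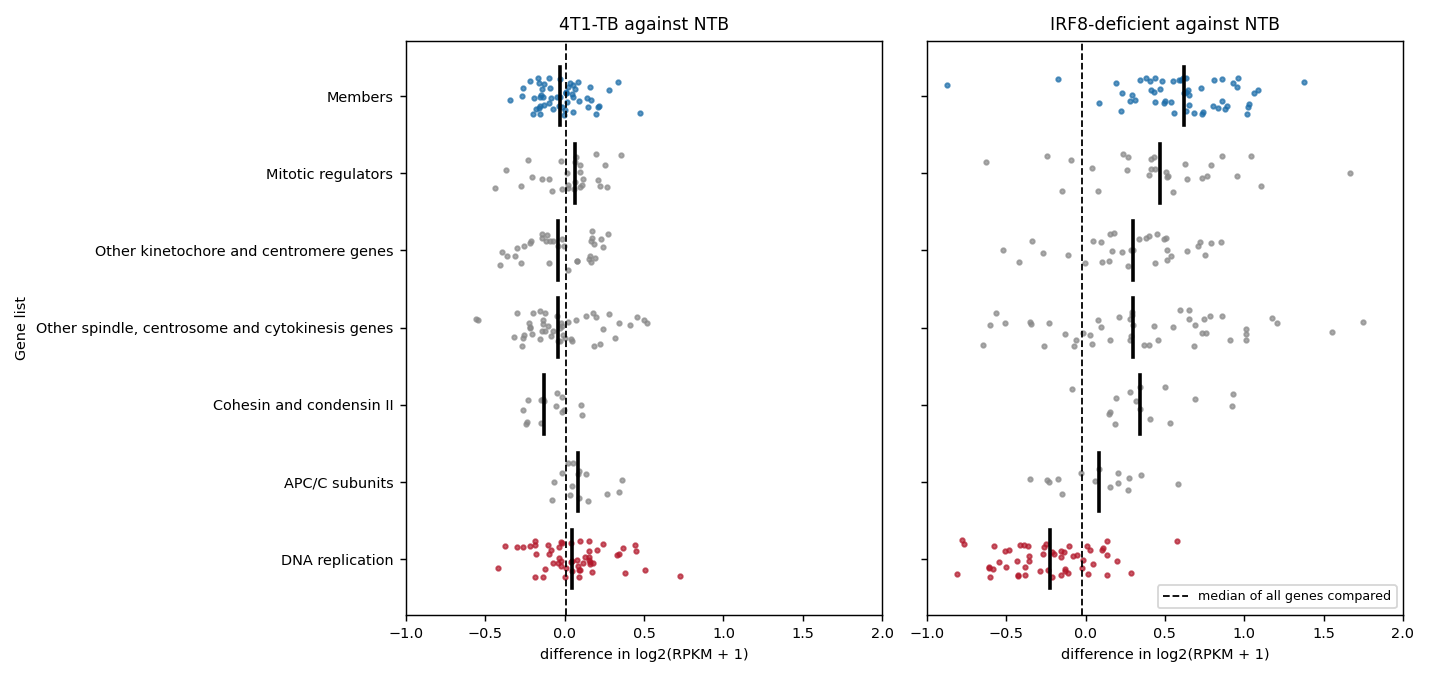
Difference in log2(RPKM + 1) for each gene (points) of the members and 6 other lists, in 4T1-TB (left) and IRF8-deficient (right) against NTB, with list medians as black bars and the median of all 10658 genes as a dashed line. On the right the members lie at 0.62 and the DNA replication genes at -0.22. By summed reads these medians become 0.07 and -0.77, and those of the other 5 lists fall below 0.

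Of 28 regulators of mitosis, 3 were called higher and none lower in IRF8-deficient against NTB, a share near the 8.78% of all genes called higher. The median difference was 0.47. By summed reads 1 was called higher and 1 lower, where 4.18% and 18.3% of all genes were, and the median was -0.05. Cdc25b, a phosphatase that activates Cdk1, had RPKM values of 5.53 (NTB), 3.82 (4T1-TB) and 19.7 (IRF8-deficient). The others called were the atypical repressor E2f7 (3.62, 3.83 and 8.92) and the kinase Melk (9.90, 8.45 and 21.5). Foxm1, a transcription factor of late cell cycle genes, had 20.3, 18.9 and 34.5. Mybl2, the MYB protein that joins MuvB at such promoters, had 34.9, 44.9 and 22.2, the lowest difference of the list at -0.63 (-1.16 by summed reads). The RNA of these activators of mitotic genes thus differed in opposite directions on the deposited scaling and by summed reads (0.20 for Foxm1).

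The cyclins Ccna2, Ccnb1 and Ccnb2 and the kinase Cdk1, which drive entry into mitosis, were ordered NTB, 4T1-TB, IRF8-deficient on the deposited scaling. Ccnb1 had an RPKM of 56.4, 68.0 and 74.8, and Ccnb2 had 59.3, 63.5 and 101. Ccna2 had 77.7, 81.6 and 135, and Cdk1 had 46.4, 55.6 and 67.0. By summed reads the differences between IRF8-deficient and NTB were -0.14 for Ccnb1, 0.22 for Ccnb2, 0.24 for Ccna2 and -0.02 for Cdk1.

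Of 47 other spindle, centrosome and cytokinesis genes 7 were called higher and none lower in IRF8-deficient against NTB. On that deposited scaling 8.78% and 5.73% of all genes were. By summed reads 2 were called higher and 4 lower, against 4.18% and 18.3% of all genes. The largest differences on the deposited scaling were those of Fam64a, Kif3b, Depdc1a and Kifc1, at 1.75, 1.55, 1.21 and 1.17. Fam64a, a regulator of chromosome segregation, had RPKM values of 9.84 (NTB), 6.36 (4T1-TB) and 35.4 (IRF8-deficient). On the deposited scaling none of 33 other kinetochore and centromere genes was called, from Cenpl at 0.85 to Zwint at -0.52. Of 15 cohesin and condensin II genes none was called, from Rad21 at 0.93 to Pds5b at -0.08. Of 15 subunits and partners of the anaphase-promoting complex none was called, from Ube2s at 0.58 to Cdc16 at -0.35. Over these 5 lists, 138 genes, 10 were called higher and none lower on the deposited scaling, again near the 8.78% of all genes called higher, and the median difference was 0.31. By summed reads 3 were called higher and 6 lower, where 4.18% and 18.3% of all genes were, and the median was -0.21. In 4T1-TB against NTB none of the 138 was called, where 1.67% of all genes were called higher and 1.35% lower.

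The sort label was checked against markers. The 10 granulocyte progenitor markers, led by Mpo, Elane, Prtn3 and Ctsg, were all detected, with a summed RPKM of 17627 (NTB), 21097 (4T1-TB) and 10740 (IRF8-deficient). Cebpe (77.4 in NTB and 255 in IRF8-deficient), Fcgr3 (101 and 275) and Csf3r (79.5 and 99.7) were higher in IRF8-deficient. All other markers of that list were lower there than in NTB. The 14 markers of maturing neutrophils, led by Ngp, Camp, Lcn2 and Ltf, summed to 1446 (NTB), 1508 (4T1-TB) and 39252 (IRF8-deficient). The close sums of NTB and 4T1-TB hid opposite directions. Ngp, Camp and Ltf were lower in 4T1-TB than in NTB, and all other markers of the list were higher. Retnlg had 6.54 in NTB and 178 in 4T1-TB, and Mmp9 had 1.91 and 29.8. Ly6g, a surface marker of mature neutrophils, had an RPKM of 4.09 (NTB), 8.16 (4T1-TB) and 84.3 (IRF8-deficient). The 10 monocyte and dendritic cell markers summed to 115 (NTB), 44.8 (4T1-TB) and 93.5 (IRF8-deficient). Ccr2 (24.2 in NTB and 40.8 in IRF8-deficient), Cd74, H2-Ab1 and Itgax were higher in IRF8-deficient than in NTB. All other markers of that list were lower there, among them Ly86 (20.3 and 3.53). The 8 early progenitor markers summed to 106 (NTB), 57.4 (4T1-TB) and 62.0 (IRF8-deficient). Kit made up most of the last sum, at 53.2. Cd34 had 36.9 in NTB and 5.41 in IRF8-deficient, and only Ly6a of that list was higher in IRF8-deficient than in NTB. The defining markers of T cells and red cells, Cd3e, Hba-a1, Hbb-bt and Hbb-b1, were at 0 in every library. The 8 T and NK cell markers found summed to between 153 and 436, nearly all of it Nkg7, the 10 erythroid markers to between 31.5 and 89.6, nearly all of it Tfrc, and the 8 B cell markers to between 11.9 and 16.9, most of it Cd79b. The 6 megakaryocyte markers summed to at most 2.09, the 8 basophil, mast cell and eosinophil markers to at most 22.1, and the 6 markers of epithelium, which 4T1 cells would carry, to at most 6.15, with 2.09 in 4T1-TB.

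Some members share exon bases with a gene on the opposite strand, and the sources used here do not say whether the counting used strand. The overlap covered 61.2% of Ube2c (with Tnnc2, at an RPKM of at most 0.111), 31.8% of Kif20a (Cdc23), 30.1% of Prc1 (Rccd1), 25.5% of Ncapg (Lcorl) and 16.7% of Kif4 (Pdzd11). It covered 14.3% of Cdca8 (9930104L06Rik) and 10.8% of Tacc3 (Tmem129). For Cenpk it was 10.6%, with Ppwd1, whose RPKM of 18.2 (NTB), 19.8 (4T1-TB) and 19.3 (IRF8-deficient) lay above that of Cenpk in each library. Values for these members, and for Kif4, Kif22 and Stmn1, which have annotated related copies, are uncertain to that extent. Across the 53 members the log2 RPKM in 4T1-TB followed that in NTB with a Pearson r of 0.986, and that in IRF8-deficient with 0.943, as a description over genes that share libraries.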

How the data were processed

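Total RNA of sorted granulocyte progenitors was sequenced in 3 libraries, 1 per group, extracted with TRIzol per the labels' protocols. The deposited values are RPKM computed by the authors for 24421 symbols per library. The tools edgeR 3.12.1, HTSeq 0.6.1, Picard 1.97, TopHat2 2.0.13, cutadapt 1.2.1 and CASAVA 1.8.2 and the build mm10 come from the submitters' processing notes, with annotation, strandedness, filters, library size and tool roles not given in the sources used here.

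The deposited RPKM was used unchanged. Because the RPKM of a gene stand in ratios of whole numbers between libraries, whole reads were recovered for 15157 of 15158 genes above 0. The implied gene length was whole within 0.05 base for 91.7% of genes over 300 reads before any common multiple was applied, and 84.7% of 14525 genes with a reference length (GENCODE M21) were within 0.8 to 1.25 of it. Recovered reads gave depth, exact Clopper-Pearson intervals for ratios, exact Poisson intervals for levels and the scaling by summed reads. In simulated data for 4T1-TB against NTB, reads were recovered exactly for 97.1% of 14190 genes. Of genes changed 2.5-fold 98% were called, 90% of those changed 0.4-fold, and 0 of the 10139 left unchanged. The simulated counts had Poisson error only, around the NTB levels, and the changed genes had an RPKM of at least 5 there. These rates therefore leave out variation between animals.

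Differences are on log2(RPKM + 1), which understates those of low genes, over genes that reached an RPKM of 1 in some library. All 53 members passed this filter. The members, their roles, the other gene lists and the promoter letters were chosen with earlier results of these data known, so they are not independent evidence. Named in full were, per role, the members with the largest and smallest difference and all called members, up to 4 called members (or the highest and lowest) of other lists, and Irf8, Foxm1, Mybl2, Ccna2, Ccnb1, Ccnb2 and Cdk1. Alternatives were pseudocounts of 0.1 and 5, median ratio scaling, scaling without the 20 highest genes, scaling by summed reads, no filter, a minimum RPKM of 5, and calls at 1.5-fold and 4-fold. Summed reads without Rn45s and no pseudocount were added after seeing the data. Calculations ran in Python 3.11.15 with pandas 2.3.3, scipy 1.17.1, numpy 2.4.6 and matplotlib 3.10.9.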

Additional observations from a re-analysis of the deposited data

How the results depend on the processing

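With 1 library per group no library could be left out. No paired analysis was possible because each group has 1 library and the labels carry no pairing. The number of members called higher in IRF8-deficient against NTB went from 6 to 8 with median ratio scaling, to 1 with a pseudocount of 5, without the 20 highest genes or with summed reads without Rn45s, to 0 by summed reads or at 4-fold, and to 30 at 1.5-fold. The number called lower went from 0 to 1 by summed reads, with or without Rn45s, without the 20 highest genes and at 1.5-fold. In IRF8-deficient against 4T1-TB the number called higher went from 10 to 11 with a pseudocount of 0.1 or none, to 6 with a pseudocount of 5 or without the 20 highest genes, to 1 by summed reads, to 3 without Rn45s, to 0 at 4-fold and to 26 at 1.5-fold, and the number called lower from 1 to 0 with a pseudocount of 5 or at 4-fold. The median difference of the members moved by more than its counting error without the 20 highest genes (-0.14 for 4T1-TB and 0.43 for IRF8-deficient against NTB), by summed reads (-0.18 and 0.073, and 0.19 for IRF8-deficient against 4T1-TB) and by summed reads without Rn45s (-0.11, 0.26 and 0.31). Its sign for 4T1-TB against NTB turned to 0.01 with median ratio scaling. By summed reads 19 members changed sign in IRF8-deficient against NTB, and none did with median ratio scaling. The 4T1-TB library was the shallowest, with 303 reads for its lowest member, and counting error is the only error these libraries can show.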

Other observations

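Of 22 G1 cyclins, kinases and inhibitors compared, 7 were called higher and 3 lower in IRF8-deficient against NTB, where 8.78% and 5.73% of all genes were. By summed reads 5 were called higher and 6 lower, where 4.18% and 18.3% of all genes were. These genes govern the step before DNA replication. Cdkn2d, an inhibitor of Cdk4 and Cdk6, had RPKM values of 10.8 (NTB), 17.4 (4T1-TB) and 71.0 (IRF8-deficient). Its relative Cdkn2c had 9.65, 7.20 and 55.6, and Cdkn1b, the inhibitor p27, had 12.7, 11.9 and 41.1. All 3 inhibitors were higher in IRF8-deficient than in NTB by summed reads too, with differences of 2.07, 1.88 and 1.09. Among the D cyclins, Ccnd3 had 41.9, 68.4 and 149, while Ccnd2 had 25.3, 17.7 and 4.94. The kinase Cdk4 had 169, 181 and 81.5. The activator E2f2 had 5.16, 10.8 and 33.7, and its 4T1-TB to NTB ratio was 2.09 (1.92 to 2.27), with a difference of 0.93 that missed the call. No gene of this list was called in 4T1-TB against NTB, where 1.67% of all genes were called higher and 1.35% lower.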
